A study of Mus musculus with 11 samples.

Results

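Telocytes and PDGFRAlo stromal cells of the mouse small intestine were compared across genes that lie outside the BMP and Wnt pathways: cell-surface receptors, ion channels, adhesion proteins, extracellular matrix genes and transcription factors. The members were taken from the bulk table by gene family, through patterns on the gene symbol, and not gene by gene on their values. The families were chosen with earlier results of these data known. They were 2041 of 24943 gene names: 504 receptors, 349 channels, 309 adhesion genes, 347 matrix genes and 532 transcription factors. Of these, 1320 passed the filter on low counts and were tested.

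Telocytes were sorted as GFP-high cells and PDGFRAlo cells as GFP-low cells of the same transgenic line, PDGFRAH2BEGFP, in which a nuclear green fluorescent protein reports Pdgfra. Each group has 2 bulk libraries. All came from the entire small intestine after the muscle was stripped and the epithelium removed with EDTA, with collagenase digestion and cell sorting before amplification from 5 to 10 ng of RNA. The labels used here give no age, no further allele or treatment and no statement that replicates are different mice. The p-values below therefore rest on variation between libraries that could be wholly technical. Droplet 3' single-cell libraries gave a second view: 1 library of sorted GFP-positive cells, with GFP-low and GFP-high cells combined at 2:1, and 2 libraries of whole mesenchyme.

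Telocytes are flat mesenchymal cells with long processes that lie beneath the epithelium, with high Pdgfra and Foxl1. PDGFRAlo cells are the more numerous fibroblasts of the lamina propria and submucosa, and include cells close to the crypt base. Beyond the morphogens they secrete, such cells sense hormones, nerves and vessels through receptors, set their excitability with channels, hold to neighbours through adhesion proteins and build different matrices, under the control of transcription factors.

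The bulk libraries held 11454466 and 13908744 counts for telocytes and 14650229 and 21339417 for PDGFRAlo cells. Pdgfra measured 2401 and 2972 CPM (counts scaled for library size and composition) in the telocyte libraries and 329.5 and 471 CPM in the PDGFRAlo libraries. The groups did not overlap for this sort gene, although its difference did not pass the threshold (log2 fold 2.75, SE 0.96, adjusted p = 0.0940 in edgeR's quasi-likelihood test). It passed with DESeq2 (0.00806), without the low-count filter (0.000507) and in a fit of the 4 compared libraries (0.0109). Of 6 telocyte markers, 5 were called higher in telocytes, and all 7 PDGFRAlo markers were called lower. Markers of endothelial cells, epithelium, enteric glia, enteric neurons and most immune cells were more abundant in the PDGFRAlo libraries. Those of pericytes and smooth muscle, given with the channels, and of interstitial cells of Cajal summed higher in telocytes. The 3 markers of interstitial cells of Cajal summed to 113 and 161 CPM in telocytes and 48.1 and 36.3 CPM in PDGFRAlo cells, with 1 called higher (Etv1, lost without any 1 library at 0.0836 to 0.213) and 0 lower. All 9 blood endothelial markers were called lower in telocytes, with a summed 3200 and 1094 CPM in PDGFRAlo replicates 1 and 2 against 74.7 and 48.9 CPM in telocytes, with none of the 9 at 0 in telocytes. The 7 macrophage and dendritic cell markers summed to 576 and 289 CPM against 50.9 and 43.1 CPM, the 4 B cell markers to 16.1 and 75.7 CPM against 2.07 and 2.30 CPM, the 4 plasma cell markers to 2318 and 2525 CPM against 569.7 and 532 CPM, and the 8 epithelial markers to 57.5 and 160 CPM against 6.84 and 7.27 CPM. The 5 T cell markers summed to 11.96 and 186 CPM in PDGFRAlo cells against 4.35 and 6.48 CPM in telocytes, with 1 called lower. The 4 mast cell markers overlapped, at 12.1 and 24.3 CPM in PDGFRAlo cells against 7.63 and 31.6 CPM in telocytes, with 0 called of 2 tested. The 5 enteric glia markers summed to 17.4 and 6.15 CPM in PDGFRAlo cells against 1.78 and 1.03 CPM in telocytes. The 4 enteric neuron markers summed to 15.8 and 3.28 CPM in PDGFRAlo cells against 0.07 and 0 CPM in telocytes. In each of these lists 1 marker was called lower, of 4 and 2 tested. In bulk libraries, fewer cells of a type and less RNA per cell cannot be told apart.

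A further measure was therefore given for each member. In the whole-mesenchyme libraries, cells with a Pdgfra UMI and no Ptprc or Pecam1 UMI (928 and 857 cells) were set against Pdgfra-negative cells with Ptprc or Pecam1, genes of leukocytes and endothelium (3820 and 3809 cells). A gene is called stromal-held below when its CPM was higher in the Pdgfra-positive cells than in these pooled cells in both libraries. In library 1, 2531 of the pooled cells had Ptprc alone and 361 had Pecam1 alone. A stromal-held gene can thus be higher in Pecam1-positive cells. Clic4, for example, had 311 CPM in Pdgfra-positive, 190 CPM in pooled and 575 CPM in Pecam1-positive cells of library 1. Cells with no Pdgfra, Ptprc or Pecam1 UMI were not compared, so a stromal-held gene can also be higher in other cell types. In the sorted single-cell library, 2303 cells passed the same Pdgfra, Ptprc and Pecam1 criteria. They were divided by markers that are not among the tested members, apart from Foxl1, which was left out of that comparison: 998 telocyte-marked and 1196 PDGFRAlo-marked cells, with a median of 4832 and 5482.5 UMIs. That library has no replicate, and its 95% Poisson intervals cover counting error only.

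Members differed between the populations in both directions, with far more calls on the PDGFRAlo side. Over all 14893 tested genes, 2.77% were called higher in telocytes and 12.1% lower, 14.9% in either direction, at an adjusted p under 0.05. Of the 1320 tested members, 85 were called higher (6.44%), 399 lower (30.2%) and 836 were not called. Their median log2 fold was -1.11, beside -0.03 over all tested genes. Because the families were chosen with earlier results of these data known, these shares are a description. Receptors had 16 higher and 128 lower calls among 337 tested, with a median log2 fold of -2.29. Channels had 15 and 45 among 178 (median -1.51), adhesion genes 8 and 64 among 214 (median -1.30), matrix genes 22 and 90 among 249 (median -1.02), and transcription factors 24 and 72 among 342 (median -0.48). Groups did not overlap for 61.8% of all tested genes. Of 398 lower members found in the single-cell tables, 198 were stromal-held, and of 84 higher members, Foxl1 left out, 67 were. Over all genes found in the single-cell tables, 41.4% of those called lower and 83.8% of those called higher were stromal-held. The endothelial and immune marker lists given above, mast cells aside, moved with the falls, and their part in the falls as a whole was not tested. Without telocyte replicate 2 the lower calls dropped to 73 receptors, 23 channels, 34 adhesion genes, 54 matrix genes and 29 transcription factors. Without telocyte replicate 1 they dropped to 39 adhesion genes and 41 transcription factors. The higher calls dropped to 8 receptors and 7 transcription factors without PDGFRAlo replicate 2, and to 9 channels and 12 matrix genes without telocyte replicate 2. They dropped to 3 adhesion genes without either telocyte replicate 1 or PDGFRAlo replicate 2, to 10 receptors without either telocyte library, and to 8 and 12 transcription factors without telocyte replicates 1 and 2. Higher adhesion genes numbered 4 without telocyte replicate 2 and 5 without PDGFRAlo replicate 1, and higher matrix genes 14 without PDGFRAlo replicate 2.

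For each class, the 3 largest rises and the 3 largest falls among stromal-held genes with 20 CPM or more and 10 or more UMIs are described first, apart from those not reported here. The choice also required groups that did not overlap, as held for 61.8% of all tested genes. That separation is therefore no result for the genes so chosen. Partners and paralogues given beside the named genes were chosen after their values were seen.

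Among receptors, telocytes carried both endothelin receptors and the apelin receptor at many times the PDGFRAlo level, whereas PDGFRAlo cells carried a GDNF-family co-receptor, an adhesion G-protein-coupled receptor and a prostaglandin receptor that were at or near 0 in telocytes. Ednrb, the endothelin receptor type B (chromosome 14, 103814625 to 103844402, minus strand, GRCm38), measured 2847 and 3885 CPM in telocytes and 94.7 and 25.3 CPM in PDGFRAlo cells. Its log2 fold was 5.81 (SE 0.74, adjusted p = 0.00104, edgeR). Both telocyte libraries were high, and the choice of genes required groups that did not overlap. Ednra, the type A receptor, measured 956 and 1267 CPM against 56.2 and 55.5 CPM (log2 fold 4.31, SE 0.40, adjusted p = 0.000321). Aplnr, the receptor of the peptides apelin and Elabela, measured 354 and 368 CPM against 16.98 and 21.7 CPM (log2 fold 4.22, SE 0.43, adjusted p = 0.000417). The groups stood apart for each of these receptors, as the choice required. The same order held in the sorted single cells: Ednrb had 1100 CPM in telocyte-marked cells (95% interval 1071 to 1130) and 50.02 CPM (44.7 to 55.8) in PDGFRAlo-marked cells. Ednra had 372 against 27.5 CPM, and Aplnr 160 against 2.68 CPM.

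Some further receptors called higher in telocytes were chosen after their values were seen. F2r, a thrombin receptor, measured 1541 and 1351 CPM against 309.9 and 182 CPM (log2 fold 2.56, adjusted p = 0.00738, edgeR), with an adjusted p of 0.0628 without PDGFRAlo replicate 2. Hrh1, the histamine H1 receptor gene, measured 71.6 and 72.0 CPM against 7.002 and 6.15 CPM (log2 fold 3.45, adjusted p = 0.00123). Ramp1, the partner that makes a CGRP receptor from the calcitonin receptor-like protein, measured 154 and 102.5 CPM against 23.7 and 20.5 CPM (log2 fold 2.54, adjusted p = 0.00261). For all 3 genes the lowest telocyte library exceeded the highest PDGFRAlo library. The partner itself, Calcrl, was not called, at 300.7 and 615 CPM in telocytes and 306 and 323.5 CPM in PDGFRAlo cells (adjusted p = 0.560).

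Falls in receptors were led by Gfra2, the co-receptor for neurturin, which had no count in either telocyte library and 32.1 and 32.4 CPM in the PDGFRAlo libraries. It was at least 328-fold lower in telocytes, taking 3 counts over the group as the floor (adjusted p = 0.00158, edgeR). Adgrd1, an adhesion G-protein-coupled receptor, measured 0.143 and 0.0605 CPM against 75.5 and 145 CPM. With 3 counts in telocytes, the ratio was 1184 (95% counting interval 405 to 5743; adjusted p = 0.000259). Ptgfr, the prostaglandin F receptor, measured 0.214 and 0 CPM against 82.6 and 59.1 CPM, also on 3 telocyte counts (ratio 700.2, 239 to 3398; adjusted p = 0.000544). The telocyte libraries were thus near 0 for each gene and the PDGFRAlo libraries were not. In the sorted cells Gfra2 had 0 UMIs in the 998 telocyte-marked cells, a level of at most 0.736 CPM, and 15.2 CPM in PDGFRAlo-marked cells. Adgrd1 had 0.798 against 15.5 CPM, and Ptgfr 0.199 against 20.99 CPM.

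Some further receptors called lower in telocytes, chosen after their values were seen, bind neurotrophins, ephrins and hormones. Of 19 tested axon guidance receptors, 0 were called higher and 6 lower, and of 91 cytokine, TNF and hormone receptors, 3 and 31, so most in these families were not called. Ntrk2, a receptor of BDNF, measured 0.570 and 0 CPM against 23.8 and 25.3 CPM (adjusted p = 0.00855, edgeR), and Ntrk3, a receptor of neurotrophin-3, 0.285 and 0 CPM against 11.8 and 20.5 CPM (adjusted p = 0.00621). Epha7, an ephrin receptor, had no telocyte count and 17.4 and 14.0 CPM in PDGFRAlo cells, at least 157-fold lower. Of 58 receptor tyrosine kinase and GDNF co-receptor genes, 52 were tested, 1 was called higher and 18 lower. Lepr, the leptin receptor, measured 38.9 and 54.7 CPM against 1204 and 1113 CPM (log2 fold -4.63, SE 0.45, adjusted p = 0.000366). Agtr1a, an angiotensin II receptor, measured 1.85 and 1.21 CPM against 93.0 and 111 CPM (log2 fold -6.06, adjusted p = 0.000283). Nrp1, a co-receptor of semaphorins and VEGF, measured 23.2 and 12.7 CPM against 771 and 505.5 CPM (log2 fold -5.15, adjusted p = 0.000350). These genes were low in both telocyte libraries and stromal-held. By contrast, the receptor with the highest mean that was not called, Axl, a receptor kinase for Gas6, measured 1087 and 949 CPM against 834.5 and 995 CPM (log2 fold 0.15, SE 0.50, adjusted p = 0.906), with overlapping groups.

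**Figure D1:**
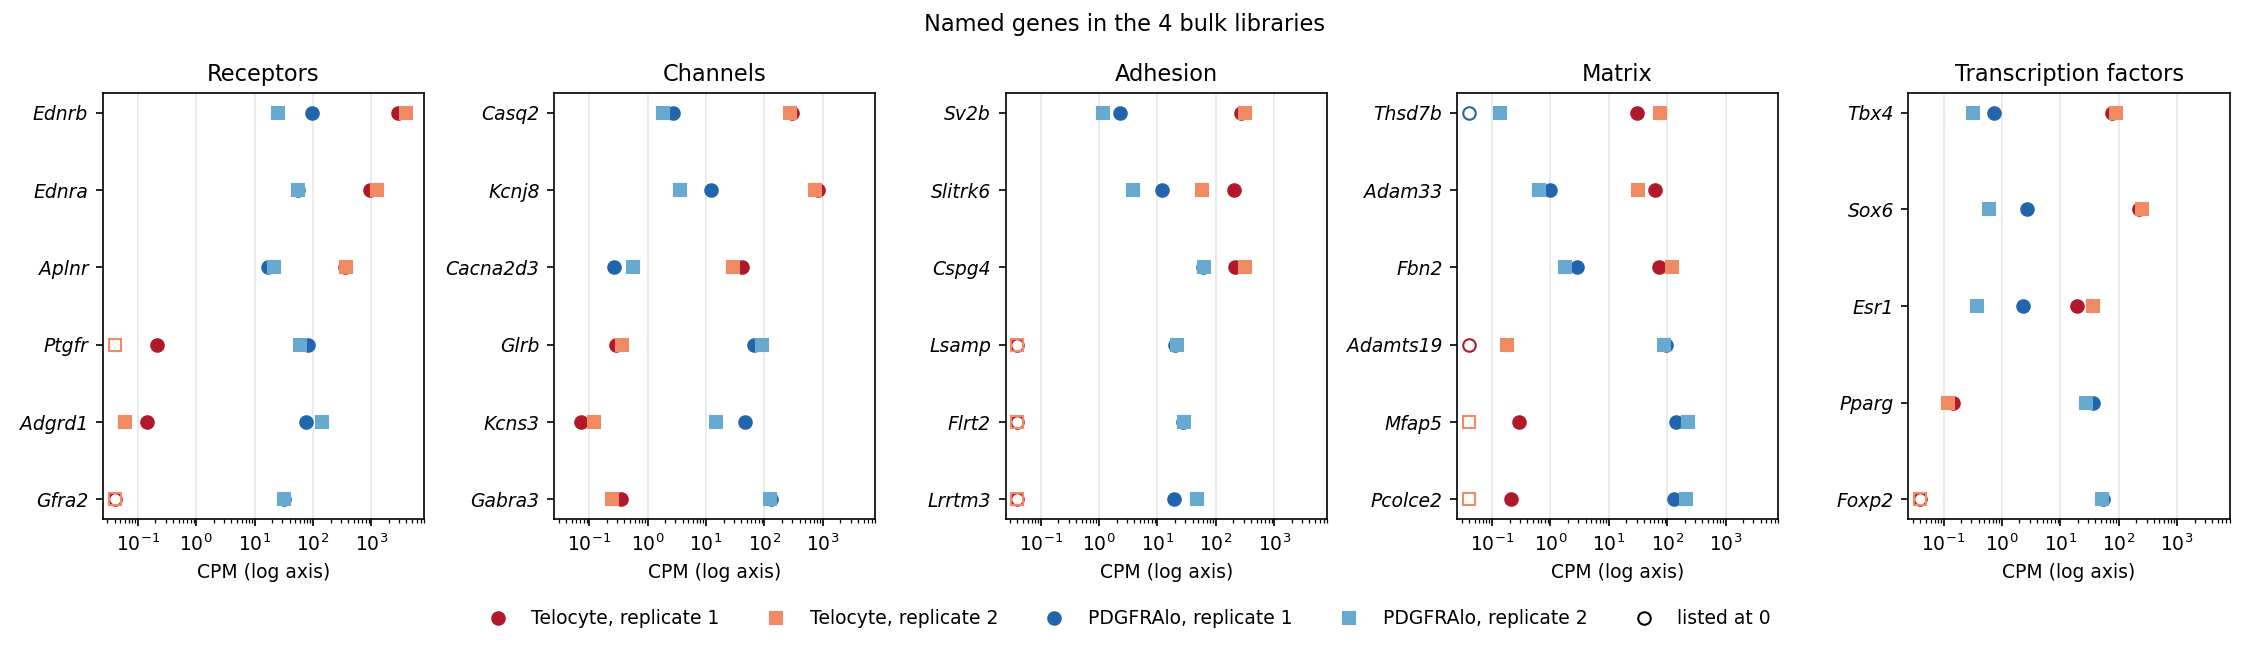
CPM (log axis) of genes named by rule, in each of the 4 bulk libraries, by gene class. Open symbols at the left edge mark a gene listed at 0. Genes were drawn only if the 2 telocyte libraries lie on the same side of both PDGFRAlo libraries.

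Channel genes higher in telocytes included a calcium store protein, an inwardly rectifying potassium channel with its regulatory subunit and several calcium channel subunits. Casq2, calsequestrin 2, which binds calcium in the sarcoplasmic reticulum of muscle, measured 295 and 273 CPM against 2.71 and 1.80 CPM (log2 fold 6.98, SE 0.60, adjusted p = 0.000278, edgeR). Kcnj8, the pore subunit Kir6.1 of an ATP-sensitive potassium channel (chromosome 6, 142564837 to 142571614, minus strand), measured 814 and 731 CPM against 12.02 and 3.604 CPM (log2 fold 6.63, SE 0.68, adjusted p = 0.000432). Abcc9, which encodes the sulfonylurea receptor that completes this channel and lies 16248 bases away, measured 705 and 719.8 CPM against 15.1 and 7.49 CPM (log2 fold 5.99, SE 0.67, adjusted p = 0.000585). Both subunits were therefore high in both telocyte libraries and low in both PDGFRAlo libraries. Cacna2d3, an auxiliary subunit of voltage-gated calcium channels, measured 42.1 and 29.1 CPM against 0.264 and 0.555 CPM (log2 fold 6.38, SE 0.60, adjusted p = 0.000446).

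Kcnj8 and Abcc9 are also used as pericyte markers, as is Cspg4. Of 7 pericyte markers, these 3 were called higher in telocytes, Ndufa4l2 was called lower and 3 were not called. The list summed to 2261 and 2291 CPM in telocytes and 1566 and 631 CPM in PDGFRAlo cells. Rgs5, another pericyte marker, measured 527 and 521 CPM against 1431 and 546 CPM (adjusted p = 0.440), and Notch3 measured 1.71 and 4.60 CPM against 41.1 and 4.11 CPM (adjusted p = 0.109). In the sorted single cells with a Pdgfra UMI, Kcnj8 had 757 CPM (733 to 782) in telocyte-marked cells and 14.2 CPM (11.4 to 17.5) in PDGFRAlo-marked cells, and Abcc9 had 278 against 5.52 CPM. Barcodes under 100 UMIs of that library, which hold mostly free RNA, had 229 CPM of Pdgfra, 214 CPM of Kcnj8 and 49.6 CPM of Abcc9, so a single Pdgfra UMI does not by itself show expression. The levels of Kcnj8 and Abcc9 in telocyte-marked cells were above those of these barcodes and the levels in PDGFRAlo-marked cells were below them.

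Further channel genes called higher in telocytes were chosen after their values were seen. Of 49 tested potassium channel genes, 5 were called higher and 16 lower, and of 10 sodium and acid-sensing channel genes, 2 and 3. Chrnb1, a subunit of the muscle acetylcholine receptor, measured 222 and 259 CPM against 34.1 and 33.5 CPM (log2 fold 2.83, adjusted p = 0.00126, edgeR). Cacna1g, a T-type calcium channel, measured 65.4 and 93.7 CPM against 3.70 and 4.85 CPM (log2 fold 4.21, adjusted p = 0.00817), with 0.0505 without PDGFRAlo replicate 1 and 0.0512 without telocyte replicate 2. Gja1, connexin 43 of gap junctions, measured 1144 and 1049 CPM against 325 and 91.9 CPM (adjusted p = 0.0346), and kept its call without PDGFRAlo replicate 1 but not without each other library (0.0934 to 0.159). The telocyte libraries were the higher ones for each of these genes. Of 33 tested calcium channel and calcium store genes, 6 were called higher and 5 lower.

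Smooth muscle markers did not move as a group: Acta2 (1083 and 753.5 CPM against 266 and 166 CPM) and Tagln were called higher in telocytes, whereas Actg2, Des and Cnn1 were called lower and Myh11 was not called. Actg2, the enteric actin of smooth muscle, measured 2.71 and 0.242 CPM in telocytes and 43.7 and 28.9 CPM in PDGFRAlo cells. Only Tagln (571 and 503 CPM against 109.6 and 67.7 CPM) was called in every fit without 1 library. Acta2 missed the threshold without telocyte replicate 1 (0.0896) or PDGFRAlo replicate 2 (0.114), Actg2 without telocyte replicate 2 (0.0635) or PDGFRAlo replicate 1 (0.0512), and Cnn1 without PDGFRAlo replicate 1 (0.0587). Des kept its call in the fit that left out PDGFRAlo replicate 2, and had adjusted p values of 0.103 to 0.127 in the other 3 such fits. The part of these cells in the channel genes was not tested.

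Of 21 tested ligand-gated channel genes, 1 was called higher in telocytes and 5 lower. The 5 were Gabra3, Glrb, Gria4, P2rx1 and P2rx7, so subunits of receptors for inhibitory transmitters were only a part of them. Gabra3, a GABA-A receptor subunit, measured 0.356 and 0.242 CPM in telocytes and 132 and 124 CPM in PDGFRAlo cells (log2 fold -8.73, SE 0.99, adjusted p = 0.000647, edgeR). Glrb, the beta subunit of the glycine receptor, measured 0.285 and 0.363 CPM against 65.8 and 89.4 CPM (log2 fold -7.87, SE 0.47, adjusted p = 0.000134). Kcns3, a modifier subunit of voltage-gated potassium channels, measured 0.0713 and 0.121 CPM against 45.9 and 14.97 CPM, a ratio of 282 on 3 telocyte counts (96.3 to 1370.3; adjusted p = 0.000887). Gabra3, Glrb and Kcns3 were below 1 CPM in both telocyte libraries. Sorted single cells gave 68.2 CPM of Gabra3 in PDGFRAlo-marked cells (61.9 to 74.9) and 1.99 CPM in telocyte-marked cells (0.957 to 3.67), and 42.8 against 0.998 CPM of Glrb. Piezo2, a mechanosensitive channel, measured 1.85 and 0.666 CPM against 41.0 and 94.3 CPM (log2 fold -5.76, adjusted p = 0.000781). The most abundant channel gene without a call, Clic4, an intracellular chloride channel protein, measured 698 and 765 CPM against 966 and 651 CPM (log2 fold -0.14, adjusted p = 0.874), with overlapping groups.

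Adhesion genes had the fewest rises, 8 of 214 tested. Sv2b, a synaptic vesicle protein grouped here with synaptic-type genes, measured 274 and 321 CPM in telocytes and 2.31 and 1.16 CPM in PDGFRAlo cells (log2 fold 7.44, SE 0.55, adjusted p = 0.000259, edgeR). Slitrk6, a neuronal leucine-rich membrane protein, measured 207 and 57.1 CPM against 12.02 and 3.74 CPM (log2 fold 4.07, SE 0.96, adjusted p = 0.0200), and missed the threshold without telocyte replicate 1 (0.141) or PDGFRAlo replicate 2 (0.111). Cspg4, the NG2 proteoglycan, measured 213 and 314 CPM against 59.6 and 63.5 CPM (log2 fold 2.097, adjusted p = 0.0292) and missed it without any 1 of the 4 libraries (0.0516 to 0.152). Of these genes, only Sv2b was thus called in every fit that left out 1 library. In single cells Sv2b had 72.6 CPM (65.4 to 80.5) in telocyte-marked and 3.16 CPM (1.93 to 4.87) in PDGFRAlo-marked cells.

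A set of 3 adhesion genes of neuronal type had no count in either telocyte library. Lrrtm3, a leucine-rich synaptic organiser, had 19.4 and 47.5 CPM in PDGFRAlo cells and was at least 365-fold lower in telocytes (adjusted p = 0.000366, edgeR). Flrt2, a ligand of Unc5 and latrophilin receptors, had 27.2 and 29.0 CPM and was at least 288-fold lower (adjusted p = 0.00141). Lsamp, a GPI-anchored immunoglobulin protein, had 20.2 and 22.0 CPM and was at least 216-fold lower (adjusted p = 0.00237). Their levels in telocyte-marked single cells were 0.998, 0.599 and 0.599 CPM, against 33.3, 11.7 and 25.2 CPM in PDGFRAlo-marked cells. Of 35 tested synaptic-type adhesion genes, 3 were called higher and 13 lower, 11 of the 13 stromal-held. Gpc3, a glypican, measured 0.143 and 0.121 CPM against 78.1 and 186 CPM (log2 fold -9.91, adjusted p = 0.000242), and Cd34, a sialomucin of fibroblasts and endothelium, 27.1 and 11.1 CPM against 1089 and 1660.1 CPM (log2 fold -6.17, adjusted p = 0.000443). Both were stromal-held.

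Integrins, the receptors for matrix, divided by subunit. Of 25 tested, 2 were called higher in telocytes and 12 lower, with 2 of the 12 stromal-held. Itga11 and Itga1, whose products bind collagen, were the higher pair. Itga11 measured 641 and 821 CPM against 154 and 262 CPM (adjusted p = 0.0419, edgeR), and Itga1 243 and 294 CPM against 114 and 87.5 CPM (adjusted p = 0.0267). Both lost their call without any 1 library (0.0674 to 0.223). Itgb1, their common beta subunit, measured 1662 and 1781 CPM against 1244 and 1167 CPM without a call (log2 fold 0.51, SE 0.45, adjusted p = 0.581). In sorted single cells Itgb1 had 598 CPM (576 to 619) in telocyte-marked and 293 CPM (280 to 307) in PDGFRAlo-marked cells.

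Matrix genes had the largest share of stromal-held falls, 70 of the 89 called lower and found in the single-cell tables. Pcolce2, an enhancer of procollagen cleavage, measured 0.214 and 0 CPM in telocytes and 129.7 and 206 CPM in PDGFRAlo cells, a ratio of 1777 on 3 telocyte counts (608 to 8617; adjusted p = 0.000242, edgeR). Mfap5, a microfibril protein, measured 0.285 and 0 CPM against 142 and 231 CPM (log2 fold -10.39, SE 1.25, adjusted p = 0.000813). Adamts19, a secreted metalloprotease, measured 0 and 0.182 CPM against 96.4 and 88.6 CPM, a ratio of 935 on 3 counts (319.6 to 4536; adjusted p = 0.000544). The telocyte libraries were at or near 0 for each of these genes. Fbln1 and Fbln2, fibulins of elastic fibres and basement membranes, were abundant in PDGFRAlo cells. Fbln1 measured 15.04 and 9.45 CPM against 3966 and 4105 CPM (log2 fold -8.37, adjusted p = 0.000295), and Fbln2 7.34 and 6.18 CPM against 849.6 and 979 CPM (log2 fold -7.08, adjusted p = 0.000139). Eln, elastin, measured 61.3 and 42.1 CPM against 768 and 1096 CPM (log2 fold -4.17, adjusted p = 0.000644).

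The rises in matrix genes included members of the same families. Of 25 tested fibulin and elastic fibre genes, 3 were called higher and 10 lower. Of 94 tested matrix proteases and inhibitors, 8 were called higher and 39 lower. Thsd7b, a thrombospondin-repeat membrane protein, measured 30.6 and 74.2 CPM in telocytes and 0 and 0.139 CPM in PDGFRAlo cells, a ratio of 664 on 3 counts (227 to 3222; adjusted p = 0.000781, edgeR). Adam33, a membrane-bound metalloprotease, measured 60.6 and 31.7 CPM against 0.991 and 0.647 CPM (log2 fold 5.82, SE 0.62, adjusted p = 0.000492). Fbn2, fibrillin 2 of microfibrils, measured 71.6 and 119 CPM against 2.84 and 1.76 CPM (log2 fold 5.38, SE 0.98, adjusted p = 0.00586). Each was far higher in both telocyte libraries than in either PDGFRAlo library. Its relative Fbn1, fibrillin 1, was not called (367 and 399.8 CPM against 504 and 1189 CPM, adjusted p = 0.138). The hyaluronan synthases went opposite ways: Has2 measured 195 and 226 CPM against 18.8 and 5.18 CPM (log2 fold 4.14, adjusted p = 0.00482), and Has1 3.35 and 0.545 CPM against 284 and 294 CPM (log2 fold -7.23, adjusted p = 0.00398). Dcn, decorin, the most abundant matrix gene without a call, measured 6234 and 4186 CPM against 16868 and 25368 CPM (log2 fold -2.02, adjusted p = 0.0504), and passed with DESeq2 (0.00121), without the low-count filter (0.00732) and with a replicate block (0.0373).

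The type IV collagen genes, which encode the network of basement membranes, showed 3 patterns by genomic pair. The genes lie head to head in pairs and are transcribed away from a shared interval. Col4a5 measured 447 and 696 CPM in telocytes and 21.7 and 43.4 CPM in PDGFRAlo cells (log2 fold 4.13, SE 0.49, adjusted p = 0.000791, edgeR). Its neighbour Col4a6 measured 53.3 and 161 CPM against 1.98 and 7.86 CPM (log2 fold 4.43, SE 1.15, adjusted p = 0.0347). Both genes of this pair were higher in telocytes, though Col4a6 lost its call without PDGFRAlo replicate 1 (0.151), PDGFRAlo replicate 2 (0.0558) or telocyte replicate 2 (0.196). Col4a3 measured 1.64 and 0.666 CPM against 26.6 and 27.7 CPM (log2 fold -4.57, SE 0.70, adjusted p = 0.00255). Its neighbour Col4a4 measured 0.356 and 0.0605 CPM against 4.69 and 6.33 CPM (log2 fold -4.73, SE 0.92, adjusted p = 0.00793), with 0.0701 without telocyte replicate 2. This pair was thus lower in telocytes. Col4a1 (2047 and 1233 CPM against 2912 and 1793 CPM, adjusted p = 0.550) and Col4a2 (868 and 622 CPM against 1257 and 986 CPM, adjusted p = 0.436) were not called.

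**Figure D2:**
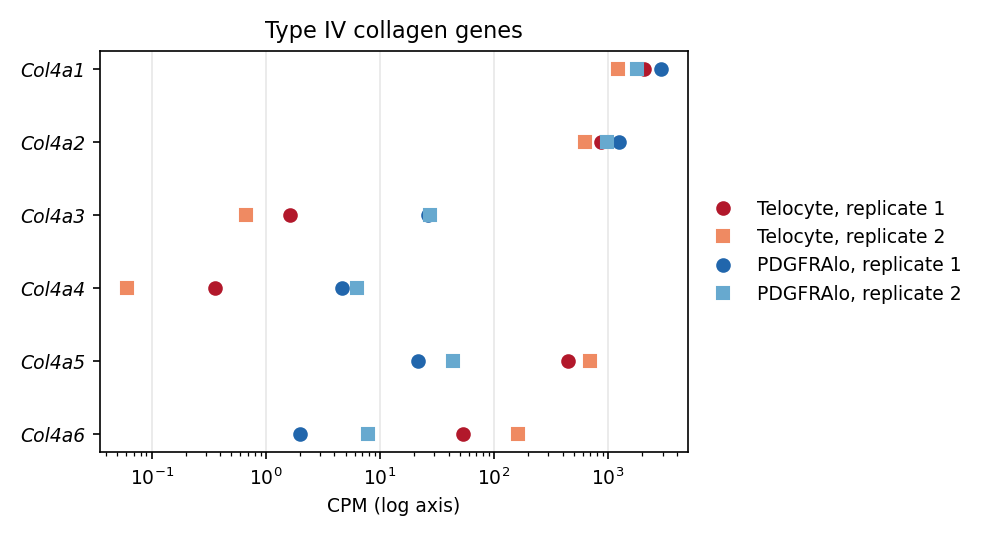
CPM (log axis) of the 6 type IV collagen genes in each of the 4 bulk libraries. Col4a5 and Col4a6 are higher in both telocyte libraries, Col4a3 and Col4a4 lower, while Col4a1 overlaps between groups and Col4a2 is lower in both telocyte libraries without a call.

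Sorted single cells gave the same order for both pairs. Telocyte-marked cells had 114 CPM of Col4a5 (105.2 to 124) and 27.9 CPM of Col4a6 (23.5 to 33.0), and PDGFRAlo-marked cells 12.3 CPM (9.73 to 15.4) and 2.52 CPM (1.44 to 4.10). Col4a3 and Col4a4 had 0 UMIs in telocyte-marked cells, a level of at most 0.736 CPM each, and 2.998 CPM (1.81 to 4.68) and 4.89 CPM (3.32 to 6.94) in PDGFRAlo-marked cells. The starts of Col4a4 and Col4a3 are 72 bases apart on chromosome 1, and those of Col4a6 and Col4a5 are 1309 bases apart on chromosome X. The bases of RefSeq's promoter windows on GRCm38.p6 that lie upstream of each start and outside both GENCODE gene models are shown because each pair had calls in the same direction. The Col4a4 stretch is the interval shared with Col4a3, whereas the Col4a6 and Col4a5 stretches do not overlap. Capitals mark the GC-box letters GGGCGG on either strand.
Col4a4, minus strand, chr1:82586850-82586920, the whole interval to Col4a3: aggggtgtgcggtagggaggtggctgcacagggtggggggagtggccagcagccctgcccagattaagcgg
Col4a6, minus strand, chrX:141474077-141474326: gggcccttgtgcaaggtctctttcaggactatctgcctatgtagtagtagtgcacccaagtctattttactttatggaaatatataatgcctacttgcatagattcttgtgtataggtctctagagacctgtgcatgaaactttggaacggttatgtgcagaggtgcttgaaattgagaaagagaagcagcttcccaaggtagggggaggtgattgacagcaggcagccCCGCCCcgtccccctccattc
Col4a5, plus strand, chrX:141475169-141475384: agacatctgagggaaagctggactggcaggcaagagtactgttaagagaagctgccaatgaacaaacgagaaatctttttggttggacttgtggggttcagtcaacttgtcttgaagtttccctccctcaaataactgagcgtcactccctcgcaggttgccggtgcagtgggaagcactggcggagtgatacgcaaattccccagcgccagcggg
GGGCGG occurred 1 time upstream of Col4a6, among the 32.7% of 32851 RefSeq windows of 250 bases that hold it, and in neither other stretch, whose lengths gave shares of 20.7% (71 bases) and 31.6% (216 bases). The TATA-box letters TATAAA and the forkhead core TAAACA, both searched on both strands and without overlap between them, were in none of the 3. At 250 bases they are in 12.4% and 12% of windows. GC content was 69.0% upstream of Col4a4, 47.6% upstream of Col4a6 and 52.3% upstream of Col4a5.

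Transcription factors differed in both directions among homeobox, T-box, forkhead and nuclear receptor genes. Tbx4, a T-box factor of lung and hindlimb mesenchyme (chromosome 11, 85886422 to 85916097, plus strand), measured 76.9 and 89 CPM in telocytes and 0.727 and 0.324 CPM in PDGFRAlo cells (log2 fold 7.34, SE 0.77, adjusted p = 0.000478, edgeR). Sox6, an HMG-box factor, measured 220.5 and 254 CPM against 2.71 and 0.601 CPM (log2 fold 7.21, SE 0.68, adjusted p = 0.000337). Esr1, the oestrogen receptor alpha, measured 19.5 and 36.0 CPM against 2.31 and 0.370 CPM (log2 fold 4.40, SE 0.80, adjusted p = 0.00560). In each case both telocyte libraries were the higher ones, as the choice required. Sox6 had 221 CPM (208.5 to 235) in telocyte-marked single cells and 3.79 CPM (2.43 to 5.64) in PDGFRAlo-marked cells. Hoxd8 and Hoxd9, neighbours on chromosome 2, also rose. Hoxd8 measured 101 and 116 CPM against 14.3 and 10.3 CPM (log2 fold 3.15, adjusted p = 0.000656), and Hoxd9 15.1 and 22.7 CPM against 0.991 and 0.601 CPM (log2 fold 4.58, adjusted p = 0.000791).

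Foxf1, a forkhead factor of gut mesenchyme, and its neighbour Foxl1, a known telocyte gene, were both called higher, less securely. Foxf1 measured 847 and 741 CPM against 360.3 and 329 CPM (log2 fold 1.20, SE 0.34, adjusted p = 0.0428, edgeR), and lost its call without any 1 library (0.146 to 0.256). Foxl1 measured 72.5 and 34.99 CPM against 4.43 and 1.06 CPM (log2 fold 4.31, SE 1.13, adjusted p = 0.0313). It kept its call without PDGFRAlo replicate 1 (0.0470), and missed it without PDGFRAlo replicate 2 (0.148), telocyte replicate 1 (0.156) or telocyte replicate 2 (0.0554). The groups did not overlap for either gene.

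Lower factors were led by Foxp2, a forkhead repressor, with no count in telocytes and 54.0 and 52.7 CPM in PDGFRAlo cells, at least 542-fold lower (adjusted p = 0.000283, edgeR). Pparg, a nuclear receptor that regulates fat cells, measured 0.143 and 0.121 CPM against 36.3 and 27.1 CPM (log2 fold -7.85, SE 0.58, adjusted p = 0.000240). Both telocyte libraries were far below both PDGFRAlo libraries for each gene. In single cells Foxp2 had 0.399 CPM in telocyte-marked and 46.7 CPM in PDGFRAlo-marked cells, and Pparg 0.599 and 17.5 CPM. Of 40 tested nuclear receptor genes, 1 was called higher (Esr1) and 9 lower, 6 of them stromal-held. Ebf1, a helix-loop-helix factor of stromal and B cells, measured 2.71 and 2.54 CPM against 64.6 and 49.4 CPM (log2 fold -4.44, adjusted p = 0.000254).

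Across members, single cells and bulk libraries mostly had the same sign. Of the 85 rises, 82 had 10 or more UMIs in the filtered sorted cells and were not used to divide them. All 82 were higher in telocyte-marked cells, 81 with intervals apart, a share that is 97.4% over all genes called higher. Of the 399 falls, 224 had 10 or more UMIs, beside 54.9% of all genes called lower and 96.3% of all called higher. Of the 224, 218 were lower in telocyte-marked cells, 203 with intervals apart, a share that is 82.2% over all genes called lower. The other 175 falls had too few UMIs for a direction. Over all tested genes with 10 or more UMIs the sign was the same for 77.1%, over genes called higher for 100%, and over genes called lower for 93.8%. Dividing the cells by Pdgfra level at 500 CPM in place of markers left 82 of 82 rises and 213 of 224 falls with the same sign. In the whole-mesenchyme libraries, a choice made after seeing the data, 74 of 74 rises had the same sign in each library. Among falls the counts were 223 of 254 in library 1 and 205 of 246 in library 2.

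**Figure D3:**
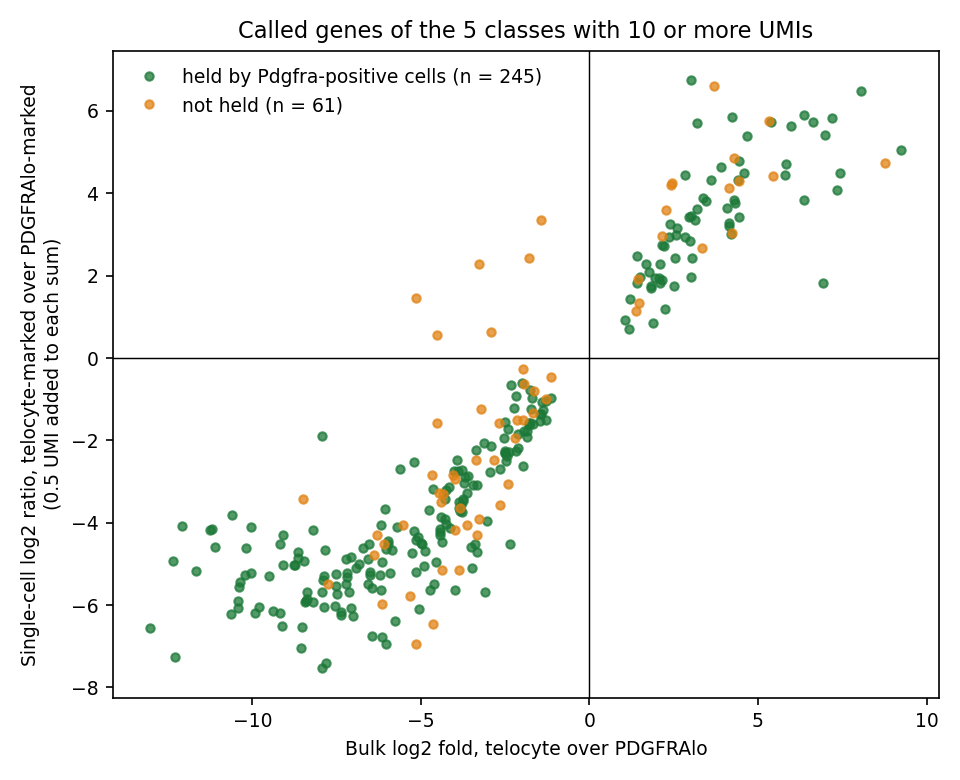
Bulk log2 fold (x, telocyte over PDGFRAlo) against the log2 ratio of summed UMIs between telocyte-marked and PDGFRAlo-marked cells of the sorted library (y, 0.5 UMI added), for called genes with 10 or more UMIs: 82 higher and 224 lower. Points at the far left are genes at or near 0 in telocytes, whose fitted fold is not a measured size; 6 falls lie above 0 on the y axis, all among genes that are not stromal-held.

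The sign was opposite in single cells for 6 falls, and for 2 of them the intervals were apart. Itga6, a laminin-binding integrin of epithelium and endothelium, measured 14.8 and 20.9 CPM in bulk telocytes and 66.3 and 30.1 CPM in PDGFRAlo cells (log2 fold -1.43, adjusted p = 0.0438, edgeR). In sorted cells it had 8.78 CPM (6.38 to 11.8) in telocyte-marked and 0.789 CPM (0.256 to 1.84) in PDGFRAlo-marked cells. Lrrc8c, a subunit of volume-regulated anion channels, measured 16.5 and 8.48 CPM against 58.7 and 27.1 CPM in bulk (log2 fold -1.78, adjusted p = 0.0275), and 5.39 against 0.947 CPM in sorted cells. Bulk and filtered single cells thus gave opposite orders for both genes. In whole mesenchyme, Pecam1-positive cells of library 1 had 91.7 CPM of Itga6 and 110 CPM of Lrrc8c, against 1.63 and 2.30 CPM in Pdgfra-positive cells. Neither gene kept its call in every fit that left out 1 library. The log2 fold of Itga6 was -0.73 without PDGFRAlo replicate 1 and -1.88 without PDGFRAlo replicate 2. It was -1.22 and -1.70 without telocyte replicates 1 and 2. For Lrrc8c the log2 folds were -1.10 and -2.23 without PDGFRAlo replicates 1 and 2, and -2.35 and -1.38 without telocyte replicates 1 and 2. The part of endothelial RNA in these falls was not tested. The other 4 falls with an opposite sign were Itga4, Itgb4, Mmrn2 and Thsd1.

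The falls that were not stromal-held followed the PDGFRAlo replicates differently. Of 398 falls found in the single-cell tables, 198 were stromal-held and 5 had no UMI in these cells of whole mesenchyme. The rest were divided by whether Pecam1-positive or Ptprc-positive cells had the higher level, 103 and 92 genes. The ratio of PDGFRAlo replicate 1 to replicate 2 had a median of 2.14 over the 103 genes, 0.708 over the 92 genes and 0.962 over the 198 stromal-held genes. Of the 103, 85 were higher in replicate 1, and of the 92, 62 were higher in replicate 2. Of the 198, 87 were higher in replicate 1 and 111 in replicate 2. The 9 matrix genes among the 92 went the other way, with a median of 1.51. This ratio was not computed over all tested genes, so no background share stands beside these counts. The part of endothelial or immune RNA in these falls was not tested. Pecam1 itself measured 299.5 and 93.4 CPM in PDGFRAlo replicates 1 and 2 and 8.20 and 3.39 CPM in telocytes, and Ptprc measured 49.6 and 120.5 CPM against 7.63 and 5.15 CPM. Replicate 1 thus had more Pecam1 and replicate 2 more Ptprc. Leukocyte markers did not all follow Ptprc. Macrophage and dendritic cell markers summed to 576 CPM in replicate 1 and 289 CPM in replicate 2. Markers of B cells (16.1 and 75.7 CPM), T cells (11.96 and 186 CPM), plasma cells (2318 and 2525 CPM) and mast cells (12.1 and 24.3 CPM) summed higher in replicate 2.

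**Figure D4:**
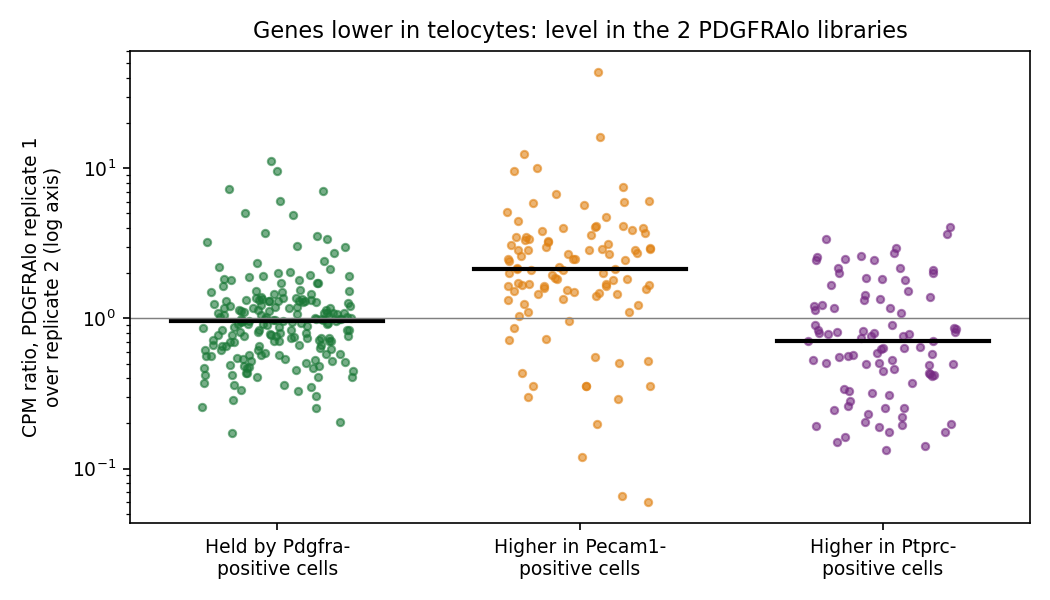
Ratio of CPM in PDGFRAlo replicate 1 to replicate 2 (log axis) for members called lower in telocytes. Genes are grouped as stromal-held or, for the rest, by whether Pecam1-positive or Ptprc-positive cells of whole mesenchyme had the higher level. Bars are medians (0.962, 2.14 and 0.708). Genes higher in Pecam1-positive cells lie mostly above 1 and genes higher in Ptprc-positive cells mostly below.

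The largest fall of each class that was not stromal-held, among genes with 20 CPM or more in PDGFRAlo cells, is given here. These genes also needed groups that did not overlap. The choice used the whole-mesenchyme libraries, so the levels there are a description. Ackr1, an atypical chemokine receptor of venules, measured 0 and 1.03 CPM in telocytes and 80.3 and 6.33 CPM in PDGFRAlo cells (log2 fold -6.31, adjusted p = 0.0159, edgeR). It missed the threshold without PDGFRAlo replicate 1 (log2 fold -3.52, adjusted p = 0.0696) or telocyte replicate 1 (0.0587), and in a fit of the 4 compared libraries (0.0656). Sele, E-selectin of activated endothelium, measured 0.214 and 0.424 CPM against 116 and 7.12 CPM (adjusted p = 0.00955), with 0.0536 and 0.0537 without telocyte replicates 1 and 2. Clca3a1, a calcium-activated chloride channel regulator, measured 0.927 and 0.303 CPM against 31.8 and 10.7 CPM (adjusted p = 0.00122), and Gata2, an endothelial and blood factor, 0.642 and 0.363 CPM against 42.1 and 7.12 CPM (adjusted p = 0.00328). All 4 were higher in PDGFRAlo replicate 1. In Pecam1-positive cells of whole-mesenchyme library 1 they had 61.3, 51.1, 97.5 and 32.2 CPM in that order, and in Pdgfra-positive cells 3.79, 0, 0.406 and 0.542 CPM. Emilin2, a matrix glycoprotein, differed: 1.57 and 0.121 CPM against 29.7 and 36.0 CPM (adjusted p = 0.00479), with 11.2 CPM in Ptprc-positive cells and 7.18 CPM in Pdgfra-positive cells of that library.

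Among called members, 75 pairs of the same family lay within 200 kb: 13 pairs were both higher, 57 both lower and 5 opposite. Since 399 called members were lower and 85 higher, most pairs would have the same direction without any link between neighbours, and nothing is read from this count. Pairs share genes, and some lie in clusters of close copies such as Serpina3, where reads could be split between genes. An opposite case was the proteoglycan cluster of chromosome 13. Ogn, osteoglycin, measured 2526 and 3025 CPM in telocytes and 351 and 621 CPM in PDGFRAlo cells (log2 fold 2.51, adjusted p = 0.0109, edgeR), while Aspn, asporin, measured 304 and 163 CPM against 790.5 and 717 CPM (log2 fold -1.69, adjusted p = 0.0453), and Ecm2 38.6 and 42.3 CPM against 118 and 158 CPM (log2 fold -1.77, adjusted p = 0.0111). Ogn missed the threshold without PDGFRAlo replicate 1 (0.0831) or telocyte replicate 2 (0.0530). Ecm2 missed it without PDGFRAlo replicate 2 (0.0632), telocyte replicate 1 (0.0956) or telocyte replicate 2 (0.0874), and Aspn without any 1 library (0.0667 to 0.323). In sorted single cells Ogn had 1013 CPM in telocyte-marked and 299 CPM in PDGFRAlo-marked cells, Aspn 305.5 and 597 CPM, and Ecm2 45.1 and 77.3 CPM, the same order as in bulk.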

How the data were processed

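Bulk values are gene counts deposited by the authors as a single table of unscaled whole numbers. Reads were aligned with STAR to mm10, per the submitters' processing notes. No source used here names the counting program, its strand setting or annotation, so a gene and an antisense or overlapping neighbour (Hoxd3 and Hoxd4, for example) cannot be told apart. Single-cell values are UMI counts deposited as the authors' Cell Ranger matrices (2.1.1 and 3.0.2, per the submitters' processing notes).

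Of 24969 bulk names, 26 had become dates (0.131% to 0.523% of counts) and were left out. A further 24861 matched mouse symbols regardless of case. Gene positions (1-based) follow GENCODE M21, build GRCm38. All 8 bulk libraries, 2 of blood and 2 of lymphatic endothelium included, entered edgeR 4.0.16 (R 4.3.3): filterByExpr, TMM, 4 group means, quasi-likelihood F-tests and Benjamini-Hochberg adjustment over 14893 genes, called under 0.05. The common biological coefficient of variation was 0.381, with 4 residual degrees of freedom. In data simulated for this comparison, 13 of 100 genes changed 4-fold and 0 of 100 changed 2-fold were called, with 0 calls among 14585 unchanged genes. The simulation gave all genes the same dispersion and changed far fewer genes than the 14.9% called in the data. Its shares are therefore not the shares detectable here. A fold against no count puts 3 counts in that group.

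Cells needed 500 genes and under 10% mitochondrial UMIs. Doublets called by scrublet (scanpy 1.11.5) were removed, 37 of 3890 sorted cells, 84 of 6226 and 97 of 6040 whole-mesenchyme cells, with the threshold of library 2 used for library 1, where the automatic threshold marked 6. The sorted and first whole-mesenchyme libraries shared 1 barcode, and the whole-mesenchyme libraries 7. A GFP UMI was present in 45 of 3853 kept sorted cells, so GFP was not used to divide them. A cell was telocyte-marked when UMIs of 7 genes (Bmp3, Bmp5, Bmp7, Foxl1, Wnt5a, Wif1, Chrd) exceeded those of 10 (Cd81, Grem1, Chrdl1, Gdf6, Gdf10, Sfrp1, Frzb, Rspo1, Rspo2, Rspo3), PDGFRAlo-marked in the reverse case, with 3 or more in all. The interval comparison was tested on simulated data: 90 of 100 genes 4-fold higher and 97 of 100 genes 4-fold lower had intervals apart, as did 49 of 11583 unchanged genes. These data were drawn with counting error alone, so they do not show how often intervals lie apart through variation between cells.

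Named per class were the 3 largest rises and 3 largest falls by log2 fold among called, stromal-held genes with 20 CPM and 10 UMIs. So were the largest fall with 20 CPM that was not stromal-held and the uncalled gene with the highest mean. All rises and falls so named needed groups that did not overlap. Some genes are not reported here. Members and lists were chosen with earlier results of these data known.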

Additional observations from a re-analysis of the deposited data

How the results depend on the processing

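No called result of those recomputed changed direction. Clic4, not called, turned from -0.14 to 0.093 (log2) with library totals and to 0.191 without PDGFRAlo replicate 1. Genes called higher and lower, 412 and 1800 in all, became 646 and 2226 with DESeq2 1.42.0, 640 and 1715 in a fit of the 4 compared libraries, 452 and 1753 with DESeq2-type size factors, 520 and 1542 with library totals, a scaling that moved the median log2 fold of all genes from -0.035 to 0.201, and 552 and 2393 with no low-count filter. Without 1 library, the lone library of its group being taken to vary like the other groups, calls ranged from 158 to 291 higher and 889 to 1533 lower. By class the ranges were 8 to 16 and 73 to 120 for receptors, 9 to 10 and 23 to 37 for channels, 3 to 5 and 34 to 51 for adhesion, 12 to 18 and 54 to 78 for matrix, and 7 to 18 and 29 to 62 for transcription factors. Replicate numbers were not shown to pair the samples (correlation 0.098 of the replicate differences of the 2 groups). A replicate block gave 407 higher and 1724 lower calls. Single-cell signs matching bulk rises stayed at every measurable gene (71 to 82), and falls matched for 174 of 179 genes with 2 Pdgfra UMIs required, 173 of 177 in cells thinned to 2000 UMIs, 219 of 225 with doublets kept and 247 of 255 with no Pdgfra UMI required, the last chosen after seeing the data. With 2 libraries per group, changes of 2-fold were not detectable in simulation.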

Other observations

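Immediate early transcription factors, which cells switch on within minutes of a stimulus, included 5 genes called lower in telocytes and 0 called higher in edgeR, of 15 tested. They were picked for description after their values were seen. Atf3 measured 27.6 and 39.2 CPM in telocytes and 636 and 652 CPM in PDGFRAlo cells (log2 fold -4.27, adjusted p = 0.000422). Jun measured 422 and 741 CPM against 1334 and 5227 CPM (adjusted p = 0.0337) and kept its call without PDGFRAlo replicate 1, but not without PDGFRAlo replicate 2 (0.297), telocyte replicate 1 (0.206) or telocyte replicate 2 (0.0977). Fosb measured 113 and 139.5 CPM against 343 and 353 CPM (adjusted p = 0.0132), with 0.158 and 0.0964 without telocyte replicates 1 and 2 and 0.0580 without PDGFRAlo replicate 2. Egr1, at 2333 and 4584 CPM against 8128 and 7588 CPM, was not called (adjusted p = 0.227). Egr3 (adjusted p = 0.0264) kept its call without PDGFRAlo replicate 2 and missed it in the other 3 such fits (0.0715 to 0.237). Fosl2 (adjusted p = 0.0467), which was not higher in Pdgfra-positive cells of whole mesenchyme, missed it without any 1 library (0.0906 to 0.395). Of the 5, Atf3 alone kept its call without either telocyte library. In sorted single cells Atf3 had 22.8 CPM in telocyte-marked and 245 CPM in PDGFRAlo-marked cells, and Egr1 391.5 and 1883 CPM.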
